A study of Mus musculus with 16 samples.

Results

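The kallikrein-related peptidases Klk5 to Klk14 were measured in mouse skin wounds, as 10 genes each read by 1 probe, out of 20832 named genes and 39429 probes on the array. The genes were chosen by family membership and not by their values: a probe was taken when its transcript accession mapped to a member's symbol in RefSeq. All 10 had a probe. The signal of 9 members was well above background on all 16 arrays, and that of Klk14 was well above background on 14 of 16. All 10 were therefore tested in every comparison.

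The data were 16 one-colour expression arrays, 2 for each of 8 groups, made of 4 kinds of wound on 2 labelled days, 7 and 14. WT wounds came from C57BL/6J females of 10 to 12 weeks. The other 3 kinds came from 10-week-old females of C57BLKS/J Iar-+Lepr db/+Lepr db (db/db), which lack a working leptin receptor and are obese and diabetic. They were left untreated (db/db), given estradiol benzoate at 0.75 µg per g per day in sesame oil on the wound (db/db + estrogen), or given sesame oil alone (db/db + vehicle). WT wounds received no oil, and WT and db/db mice differ in background strain as well as in leptin receptor genotype. Each mouse carried a pair of 4-mm full-thickness wounds on the back under a hydrocolloid dressing, and RNA came from the wound together with the intact skin around it. In such a homogenate, fewer cells of a type and less RNA per cell cannot be told apart. No source used here says whether the 2 arrays of a group came from separate mice, so p-values measure the spread between these arrays, which may be technical. Arrays are named here by their labelled day. However, 40 of 40 fold changes that the study prints by day matched arrays of the other labelled day, so the direction of time is not settled. The labelled days were also scanned on different days, and day and scan cannot be told apart. Every gene on the keratinocyte marker lists that had a probe, Krt5 and Krt10 included, was well above background on at least 1 array.

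Tissue kallikreins are secreted serine proteases made as inactive precursors. In the epidermis they are made mainly by keratinocytes of the granular layer, activate one another in a cascade, and cut the desmosome proteins that hold dead cells of the cornified layer together, so that these cells are shed. Their activity is held back by inhibitors such as the product of Spink5, and some of them also act on the receptor PAR-2, on antimicrobial peptides and on matrix proteins at a wound's edge.

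On labelled day 7, transcripts were lower in db/db + estrogen than in db/db + vehicle wounds for 9 of the 10 genes (background 4.32% of all probes called lower). Of these, 5 also had an adjusted p under 0.05 (background 1.26%). Without Klk14, which was below background on both estrogen arrays, the counts were 8 and 4. The adjusted count of 5 was 2 with only the arrays compared. The calls of Klk7, Klk8 and Klk11 did not hold in every fit that left out 1 array. Klk13 was 34.6-fold lower, Klk6 was 24.8-fold lower, Klk12 was 19.1-fold lower, Klk10 was 10.9-fold lower and Klk9 was 5.69-fold lower, and Klk14 was at least 6.22-fold lower. Klk7, Klk8 and Klk11 were lower by smaller folds, and Klk5 did not pass the test. On labelled day 14 none of the 10 passed the same comparison.

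**Figure D1:**
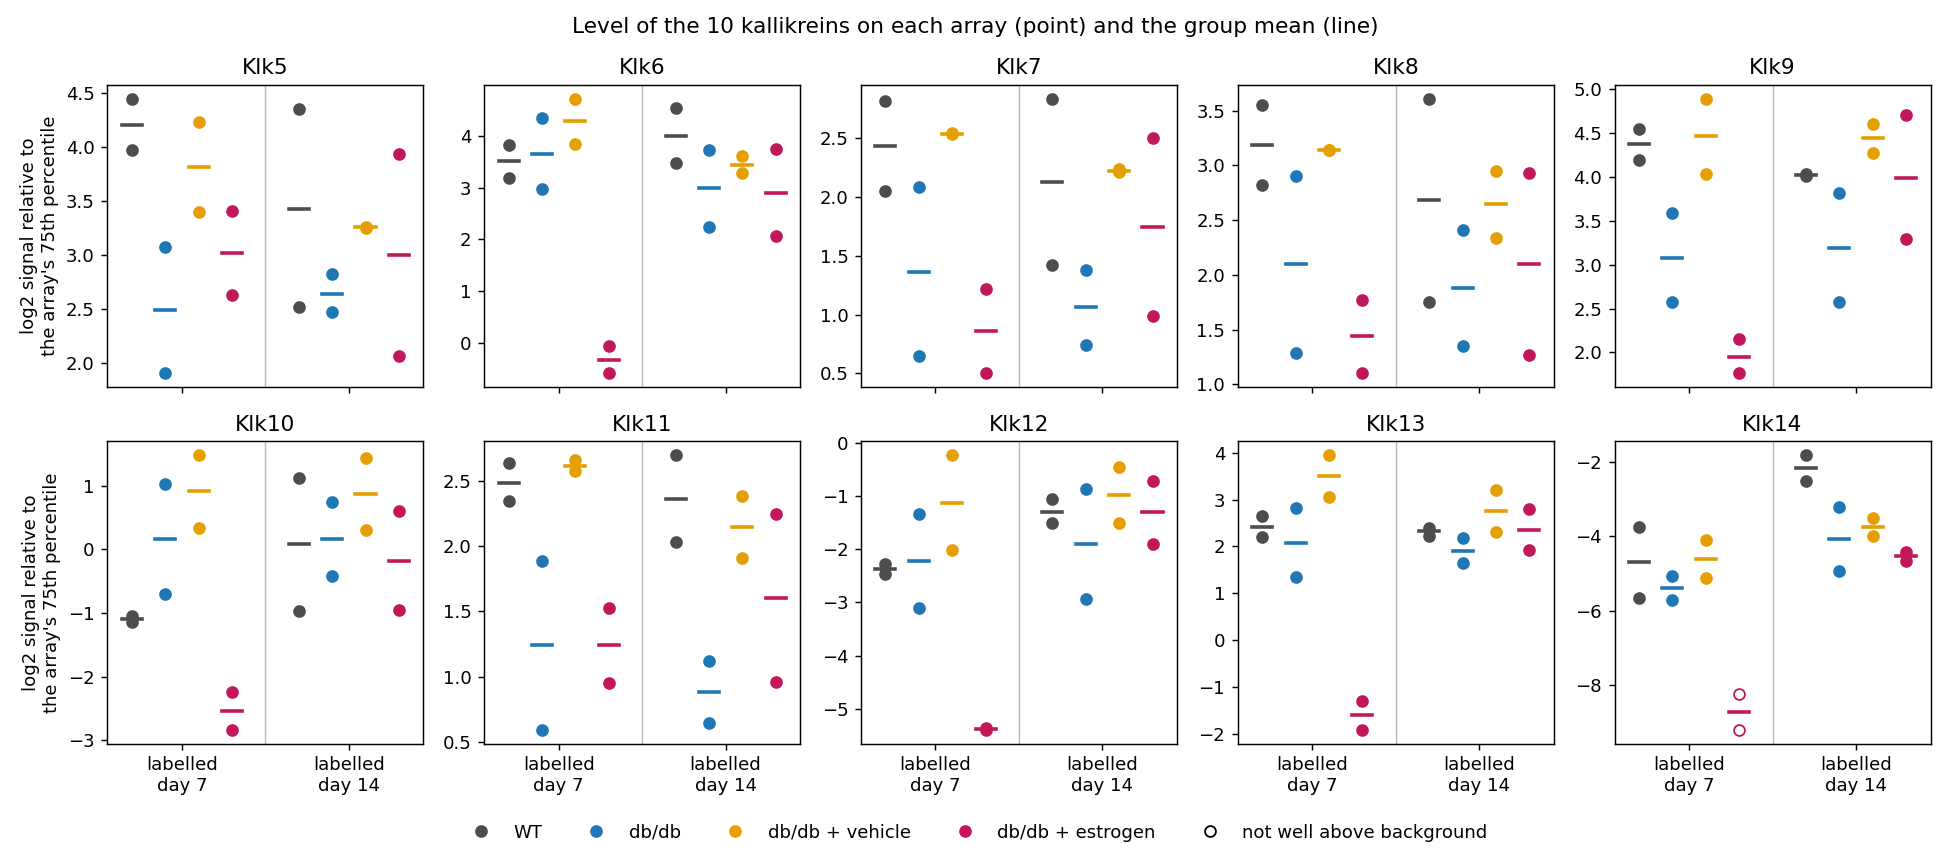
Level of each of the 10 kallikreins on each of the 16 arrays, as log2 signal relative to the array's 75th percentile (y axis), by group and labelled day (x axis). Points are single arrays and lines are means of 2 arrays. Both db/db + estrogen arrays of labelled day 7 hold the lowest values of Klk6, Klk9, Klk10, Klk12, Klk13 and Klk14 (open points are not well above background), while Klk5 there lies between 2.63 and 3.41, within the range of the other groups.

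Levels are given as log2 of the background-subtracted signal minus that of the array's 75th percentile, so 0 is the level of the probe at that percentile, and levels of different probes are not compared. A gene is said to have risen or fallen when the limma test gave an unadjusted p under 0.05 and the fold passed 2, the thresholds of the study's methods. The p-values adjusted by Benjamini-Hochberg over all probes tested are given beside most calls of members, and beside calls of other genes only in places. Folds are given only with the call, and a member that missed the threshold is not thereby shown to be alike in the groups.

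Klk5, Klk7 and Klk14 are described first. Klk5, a trypsin-like protease that activates itself and other kallikreins, stood at 3.40 and 4.23 on the 2 arrays of db/db + vehicle on labelled day 7 and at 3.41 and 2.63 in db/db + estrogen. The groups overlapped, and the difference of -0.80 ± 0.72 (log2, SE; n = 2 each; limma adjusted p = 0.566) did not pass. The difference was 0.01 on slide 1 and -1.60 on slide 2, each of which held 1 array of each group. Klk7, the chymotrypsin-like protease of the cornified layer that cuts corneodesmosin, stood at 2.54 and 2.53 in db/db + vehicle and at 1.22 and 0.50 in db/db + estrogen. The groups did not overlap, and Klk7 fell by 1.67 ± 0.64 (limma adjusted p = 0.175). Klk14, a strong trypsin-like activator of PAR-2, read -4.11 and -5.11 in db/db + vehicle. On both db/db + estrogen arrays it was not well above background, with readings of -8.25 and -9.22, so its fall has only a bound: it was at least 6.22-fold lower (limma adjusted p = 0.0179), the bound putting the dim group, array by array, at the faintest signal that still counted as well above background. With background corrected by normexp in place of the scanner software, the Klk14 difference was -1.04 and still called in this comparison.

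The widest gaps lay among the other trypsin-like members. Klk13 read 3.95 and 3.05 in db/db + vehicle against -1.92 and -1.30 in db/db + estrogen, a fall of 5.11 ± 0.54 on the log2 scale (limma adjusted p = 0.00313). Klk6, also known as neurosin from its expression in the nervous system, read 4.73 and 3.86 against -0.07 and -0.60, a fall of 4.63 ± 0.71 (limma adjusted p = 0.0115). Klk12 read -0.23 and -2.02 against -5.36 and -5.40, a fall of 4.26 ± 0.83 (limma adjusted p = 0.0286), or -2.96 and still called under normexp. In each of these genes both estrogen arrays lay below both vehicle arrays, and the gap was wider than the spread within either group. Klk8, known as neuropsin, read 3.14 on both vehicle arrays and 1.77 and 1.1 on the estrogen arrays, a fall of 1.71 ± 0.76 (limma adjusted p = 0.239). Klk11 read 2.66 and 2.58 against 1.53 and 0.95, a fall of 1.38 ± 0.50 (limma adjusted p = 0.154).

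Of the remaining pair, Klk9, which cuts in the manner of chymotrypsin, read 4.89 and 4.03 in db/db + vehicle and 2.15 and 1.76 in db/db + estrogen, a fall of 2.51 ± 0.55 (limma adjusted p = 0.0428). Klk10 read 1.48 and 0.34 against -2.24 and -2.84, a fall of 3.45 ± 0.85 (limma adjusted p = 0.058). In all, the groups of 9 of 10 members did not overlap, with estrogen the lower, as in 29.8% of all probes.

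Thus 9 of 10 members fell, against 4.32% of all probes tested that were called lower in this comparison, and 5 of 10 (Klk6, Klk9, Klk12, Klk13 and Klk14) also had an adjusted p under 0.05, against 1.26% of all probes. Both counts hold Klk14, which was tested only because it was above background in vehicle; with every array of the pair required above background, 8 members were called and 4 had an adjusted p under 0.05. The adjusted count of 5 was 1 without db/db + estrogen replicate 1, without its replicate 2 or without db/db + vehicle replicate 1, 4 without db/db + vehicle replicate 2, 2 with only the arrays compared and 2 with the replicate number as a block. The median difference over the members was -2.98, or -2.57 with Klk14 at its bound, beside 0.01 over all probes. Within slides, the difference was negative on both slides for the 8 that fell and were measured in both groups, and Klk13 differed by -5.87 and -4.36 and Klk6 by -4.80 and -4.46. Leaving out each of the 4 arrays in turn, with the lone array left in a group assumed to vary like the other groups, kept the calls of Klk6, Klk9, Klk10, Klk12, Klk13 and Klk14 in every fit. The call of Klk8 was lost without any 1 of the 4 (-2.04 without db/db + estrogen replicate 1, -1.37 without its replicate 2, -1.70 without db/db + vehicle replicate 1 and -1.71 without its replicate 2). Klk7 and Klk11 kept their calls only without db/db + estrogen replicate 1. Without db/db + estrogen replicate 2 Klk7 was at -1.32 and Klk11 at -1.09, without db/db + vehicle replicate 1 they were at -1.67 and -1.34, and without its replicate 2 at -1.67 and -1.42.

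**Figure D2:**
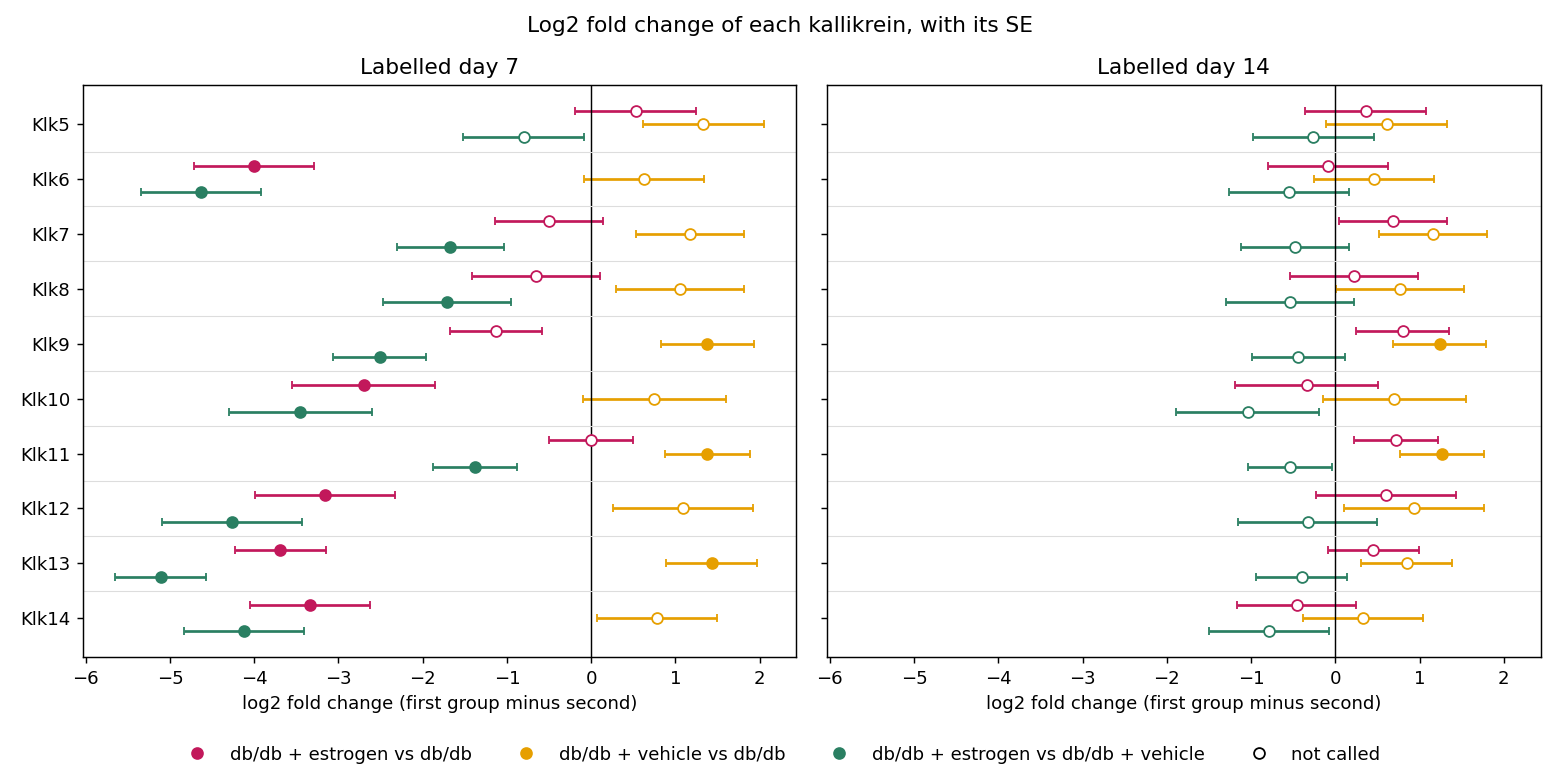
Log2 fold change of each kallikrein (x axis; y axis, genes) for the 3 comparisons among db/db, db/db + vehicle and db/db + estrogen on each labelled day, with bars of 1 SE from the limma fit and open points not called. The db/db + estrogen against db/db + vehicle points of labelled day 7 run from -5.11 for Klk13 to -0.80 for Klk5, and those of labelled day 14 from -1.04 to -0.26, and the Klk14 points of labelled day 7 with estrogen are fitted values from readings below background.

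The same db/db + estrogen arrays were also set against untreated db/db wounds of labelled day 7, to ask what the treated wounds looked like beside the diabetic wounds that had received no oil. Here 5 of 10 members fell (background 4.71% of probes called lower), and 3 of 10 with an adjusted p under 0.05 (background 2.62%). Without Klk14, which was below background under estrogen, these counts were 4 and 2. The adjusted count was 0 with only the arrays compared, 2 without db/db replicate 1, and 1 without db/db replicate 2 or either estrogen array. Klk13 read 1.34 and 2.82 in db/db and was 12.9-fold lower under estrogen, by -3.69 ± 0.54 (limma adjusted p = 0.00481). Klk6 read 2.97 and 4.36 in db/db and differed by -4.00 ± 0.71 (limma adjusted p = 0.0109). Klk14 read -5.71 and -5.07 in db/db and was at least 3.62-fold lower (limma adjusted p = 0.025), a call that was not kept under normexp, where its difference was -0.62. Klk12 read -3.10 and -1.34 in db/db and fell by 3.16 ± 0.83 (limma adjusted p = 0.0549), and Klk10 read -0.71 and 1.03 and fell by 2.70 ± 0.85 (limma adjusted p = 0.101). Under normexp Klk12 was at -1.95. The groups of 6 of 10 members, these 5 and Klk9, did not overlap, with estrogen the lower, as in 23.6% of all probes.

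The other 5 members did not pass against db/db. Klk9 differed by -1.13 ± 0.55, Klk8 by -0.66 ± 0.76, Klk7 by -0.50 ± 0.64, Klk11 by 0.00 ± 0.50 and Klk5 by 0.53 ± 0.72. On the slide of the first replicates Klk5, Klk7, Klk8 and Klk11 were higher under estrogen, by 0.49 to 1.51, and on the slide of the second replicates all 4 were lower, by -0.45 to -1.80. The median of the 10 members was -1.91, or -1.49 with Klk14 at its bound, beside 0.04 over all probes. It was -0.89 under normexp and -1.22 without db/db replicate 2. Leaving out db/db replicate 2 (Klk10 at -1.83) or db/db + estrogen replicate 2 (Klk10 at -2.40) ended the call of Klk10, while Klk6, Klk12, Klk13 and Klk14 kept theirs in all 4 fits. This comparison and the one with vehicle share the estrogen arrays.

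Against WT wounds of labelled day 7, 8 of 10 members were lower in db/db + estrogen (background 4.49%), 4 of them with an adjusted p under 0.05 (background 1.72%). With both groups required above background, which leaves out Klk14, they were 7 and 3. The adjusted count was 1 with only the arrays compared and without WT replicate 2 or db/db + estrogen replicate 2, and 2 without db/db + estrogen replicate 1. Klk13 read 2.20 and 2.64 in WT and was lower by -4.03 ± 0.54 (limma adjusted p = 0.00305), Klk6 read 3.20 and 3.83 and was lower by -3.85 ± 0.71 (limma adjusted p = 0.0148), and Klk9 read 4.19 and 4.54 and was lower by -2.41 ± 0.55 (limma adjusted p = 0.0374). Klk14 read -5.65 and -3.74 in WT and was at least 5.86-fold lower (limma adjusted p = 0.0124), with a difference of -1.36, still called, under normexp. Klk12, Klk8, Klk7 and Klk11 were also called, at -3.01, -1.75, -1.57 and -1.25 (limma adjusted p = 0.0769, 0.258, 0.225 and 0.214). Klk12 was at -1.90 under normexp. Klk10 (-1.44 ± 0.85) and Klk5 (-1.19 ± 0.72) were not called. The Klk8 call was lost without any 1 of the 4 arrays (-2.11 to -1.39). Klk7 lost its call without WT replicate 2 (-1.19) and without db/db + estrogen replicate 2 (-1.21), and Klk11 without WT replicate 1 (-1.40), WT replicate 2 (-1.11) and db/db + estrogen replicate 2 (-0.97).

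Sesame oil alone was set against untreated db/db wounds to separate the oil from the hormone. On labelled day 7 all 10 members read higher in db/db + vehicle, with a median of 1.13 beside 0.05 over all probes, and 3 of 10 rose (background 2.52% of probes called higher). Klk9 rose from 2.57 and 3.59 to 4.89 and 4.03, by 1.38 ± 0.55 (limma adjusted p = 0.321). Klk11 rose from 0.59 and 1.89 to 2.66 and 2.58, by 1.38 ± 0.50 (limma adjusted p = 0.275), and Klk13 from 1.34 and 2.82 to 3.95 and 3.05, by 1.43 ± 0.54 (limma adjusted p = 0.293). The groups of 6 of 10 members, these 3 and Klk5, Klk7 and Klk8, did not overlap, with vehicle the higher, as in 22.4% of all probes. The size differed by slide: Klk9 differed by 2.32 and 0.43, Klk11 by 2.07 and 0.70, and Klk13 by 2.62 and 0.24. On slide 2, 4 members were lower in vehicle, Klk6 by -0.50, Klk10 by -0.69, Klk12 by -0.69 and Klk14 by -0.04. Without db/db replicate 1 no member was called, the median was 0.45, 2 of 10 members were lower in vehicle, and Klk9, Klk11 and Klk13 were at 0.87, 0.73 and 0.69. Without db/db + vehicle replicate 1 they were at 0.95, 1.35 and 0.97 and not called, and Klk11 (1.42) was also not called without db/db + vehicle replicate 2. The median was 1.89 without db/db replicate 2. The summed level of 7 basal keratinocyte genes, led by Krt5, on the linear scale relative to the 75th percentile, was 155 and 207 in db/db, 295 and 339 in db/db + vehicle and 316 and 251 in WT on this day. That of 6 suprabasal genes, led by Krt10, was 121 and 253, 291 and 501, and 340 and 404. Their part in the kallikrein differences among these groups was not tested.

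The vehicle wounds of labelled day 14 again had higher Klk9 and Klk11 than db/db wounds, 2 of 10 members (background 5.31%). Klk9 read 4.60 and 4.27 against 2.57 and 3.82, a rise of 1.24 ± 0.55 (limma adjusted p = 0.28), and Klk11 read 2.39 and 1.91 against 0.64 and 1.12, a rise of 1.27 ± 0.50 (limma adjusted p = 0.236). The groups of 5 of 10 members, these and Klk5, Klk7 and Klk13, did not overlap, with vehicle the higher, as in 38.3% of all probes. Without db/db replicate 1 Klk9 was at 0.62 and Klk11 at 1.03, and without db/db + vehicle replicate 1 at 1.08 and 1.03, none of them called, and Klk9 (1.41) was not called without db/db + vehicle replicate 2 either. Of all probes called in this comparison 70.7% were higher in db/db + vehicle, and 59.3% under normexp. The summed basal keratinocyte level was 383 and 370 in db/db + vehicle and 145 and 272 in db/db on this day, the suprabasal one 318 and 267 against 149 and 203, and that of the wound-activated list 546 and 511 against 186 and 397, and their part was not tested. In the limma test of the difference in the vehicle effect between the labelled days, 0 of 10 members were called or had an unadjusted p under 0.05 (background 2.81% called in either direction).

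Untreated db/db wounds were compared with WT wounds as the diabetic contrast of the study. On labelled day 7, 3 of 10 members were lower in db/db (background 8.42%). Klk5 read 3.97 and 4.45 in WT and 1.90 and 3.07 in db/db, lower by -1.73 ± 0.72 (limma adjusted p = 0.141). Klk9 was lower by -1.29 ± 0.55 (limma adjusted p = 0.151) and Klk11, at 2.35 and 2.64 in WT, by -1.26 ± 0.50 (limma adjusted p = 0.125). The groups of these 3 of 10 members did not overlap, with db/db the lower, as in 31.9% of all probes, and all 3 calls were lost without db/db replicate 1 (Klk5 -1.14, Klk9 -0.77, Klk11 -0.61), without WT replicate 1 (Klk5 -1.97, Klk9 -1.46, Klk11 -1.40) or without WT replicate 2 (Klk5 -1.49, Klk9 -1.11, Klk11 -1.12). The members' median was -0.88 beside -0.05 over all probes, and it was -0.32 without db/db replicate 1, -1.43 without its replicate 2, -1.42 without WT replicate 1 and -0.40 without WT replicate 2. Of all probes called here 40.3% were higher in db/db, and 52.2% after quantile normalisation. Between vehicle-treated and WT wounds, Klk10, at 1.48 and 0.34 against -1.15 and -1.05, was the 1 member called (2.01 ± 0.85, limma adjusted p = 0.175; background 3.91% called higher). Klk10 lost its call without WT replicate 1 (1.96), WT replicate 2 (2.06) or db/db + vehicle replicate 1 (1.44), and 38.0% of the probes called in that comparison were higher in vehicle, or 50.5% after quantile normalisation.

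On labelled day 14, Klk11 (-1.48 ± 0.50, limma adjusted p = 0.0628) and Klk14 (-1.92 ± 0.71, limma adjusted p = 0.0846) were lower in db/db than in WT, 2 of 10 against a background of 15.6%. Klk11 read 2.70 and 2.03 in WT and 0.64 and 1.12 in db/db, without overlap. Klk14 read -1.81 and -2.51 in WT, the highest levels of Klk14 on any array, against -4.94 and -3.22 in db/db, -3.50 and -4.00 in db/db + vehicle and -4.43 and -4.66 in db/db + estrogen. Klk14 was also the 1 member lower than WT in db/db + estrogen (-2.38 ± 0.71, limma adjusted p = 0.0572; background 10.8%) and the 1 member lower in db/db + vehicle (-1.59 ± 0.71, limma adjusted p = 0.158; background 10.8%). These 3 comparisons share the WT arrays, of which replicate 2 was the dimmest of the series, with a 75th percentile signal of 1091. Without WT replicate 1 Klk14 was at -1.57 in db/db, -2.03 in db/db + estrogen and -1.24 in db/db + vehicle, none called, and the vehicle call was lost without any 1 array (-1.94 to -1.24). Klk14 in db/db was also lost without db/db replicate 1 (-1.06), and Klk11 without db/db replicate 1 (-1.24) or WT replicate 1 (-1.15). Both db/db arrays of this day were on slide 3 and both WT arrays on slide 4; with slide as a fixed block Klk11 was at -2.37 and called, Klk14 was at -2.29 and not called (limma adjusted p = 0.252), and the members' median moved from -0.81 to -1.77. That median was -0.27 and -1.42 without db/db replicates 1 and 2, and -0.37 and -1.62 without WT replicates 1 and 2. Of the probes called, the shares that were higher were 13.1% in db/db, 18.9% in db/db + estrogen and 19.0% in db/db + vehicle, and 32.2%, 35.7% and 37.3% after quantile normalisation; the median of all probes moved from -0.12 to 0.07 in db/db against WT.

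None of 10 members was called on labelled day 14 in estrogen against vehicle (background 0.984% in either direction), with differences of -1.04 (Klk10) to -0.26 (Klk5) and a median of -0.51. None was called in estrogen against db/db (background 3.91% in either direction), with a median of 0.40. That median was -0.33 without db/db + estrogen replicate 1, -0.06 without db/db replicate 1, 0.73 with 1 member, Klk9, called without db/db replicate 2, and 1.12 with 2 members, Klk9 and Klk11, called without db/db + estrogen replicate 2. With slide as a fixed block it was 0.86 with 1 member, Klk11 (1.17), called; both db/db arrays were on slide 3, and on that slide the members differed by -0.35 (Klk14) to 1.51 (Klk9). With all arrays, limma gave no member of either comparison an unadjusted p under 0.05. The db/db + estrogen arrays of labelled day 14 were far apart: Klk13 read 2.80 and 1.92, Klk6 read 3.75 and 2.06, and Klk5 read 3.94 and 2.06. Against vehicle the median of the members was 0.27 without db/db + estrogen replicate 2, -1.19 with 1 member, Klk11, called lower without db/db + estrogen replicate 1, -0.29 without db/db + vehicle replicate 1 and -0.81 without its replicate 2. In the comparison with db/db 65.3% of called probes were higher under estrogen, and 53.5% after quantile normalisation.

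Set against each other directly, db/db + estrogen wounds of labelled day 14 had higher levels than those of labelled day 7 for 6 of 10 members (background 3.05%), 5 of them with an adjusted p under 0.05 (background 1.89%). With both days required above background, which leaves out Klk14, they were 5 and 4. The adjusted count was 3 with only the arrays compared, 2 without replicate 1 of labelled day 7, and 1 without replicate 2 of labelled day 7 or replicate 1 of labelled day 14. Klk12 was higher by 4.08 ± 0.83 (limma adjusted p = 0.0165), Klk13 by 3.97 ± 0.54 (limma adjusted p = 0.00495), Klk6 by 3.24 ± 0.71 (limma adjusted p = 0.0205), Klk9 by 2.04 ± 0.55 (limma adjusted p = 0.0406) and Klk10 by 2.36 ± 0.85 (limma adjusted p = 0.095), and Klk14 was at least 6.52-fold higher (limma adjusted p = 0.00965). Under normexp Klk14 differed by 0.93 and was not called, and Klk12 differed by 2.79. The groups of these 6 of 10 members did not overlap, as in 24.8% of all probes higher on labelled day 14. Klk10 lost its call without db/db + estrogen replicate 2 of labelled day 7 (2.06) or replicate 1 of labelled day 14 (1.58). In WT wounds Klk14 alone was higher on labelled day 14, by 2.53 ± 0.71 (limma adjusted p = 0.254; background 1.93%), and its call was lost without WT replicate 1 of labelled day 7 (1.58), and it was 1.40 under normexp. No member was called between the days in db/db (background 12.6% in either direction) or db/db + vehicle (background 11.7% in either direction). The shares of called probes that were higher on labelled day 14 were 22.0% in db/db + estrogen, 44.8% in WT, 10.8% in db/db and 20.7% in db/db + vehicle, and 39.1%, 60.3%, 30.2% and 37.3% after quantile normalisation.

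The change of an effect between the labelled days was tested itself. For estrogen against vehicle the difference of differences was 4.71 ± 0.76 in Klk13 (unadjusted p = 0.000102, limma adjusted p = 0.0745), 4.08 ± 1.00 in Klk6 (limma adjusted p = 0.2), 3.93 ± 1.17 in Klk12 (limma adjusted p = 0.267) and 2.07 ± 0.78 in Klk9 (limma adjusted p = 0.359). Of the 9 members well above background on every array these 4 were called (background 7.16% of probes in either direction), none of them with an adjusted p under 0.05, as 3 of 30630 probes had. Klk14 is left out, since it was below background on both estrogen arrays of labelled day 7. For estrogen against db/db the same 4 of 9 were called (background 6.27% in either direction), with Klk13 at 4.14 ± 0.76 (limma adjusted p = 0.104). Klk5 differed by 0.54 ± 1.01 against vehicle and by -0.18 ± 1.01 against db/db. The 2 tests share the estrogen arrays.

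The 10 members did not vary as 1 block over the arrays. Pearson's r between members over all 16 arrays ran from 0.224 (Klk5 and Klk14) to 0.965 (Klk7 and Klk8), with a median of 0.74 over 45 pairs. Klk5, Klk7, Klk8 and Klk11 were close to one another, at 0.853 to 0.965. Klk6, Klk10, Klk12, Klk13 and Klk14 formed a looser set, at 0.712 (Klk10 and Klk14) to 0.937 (Klk6 and Klk13). Klk9 was close to genes of both sets, at 0.851 with Klk7 and 0.87 with Klk13. Without the db/db + estrogen arrays of labelled day 7, on both of which Klk14 was not well above background, the median r over 14 arrays was 0.667. The first set stayed close there, at 0.864 (Klk5 and Klk11) to 0.955 (Klk7 and Klk8). In the second, the pairs with Klk14 were lower, at 0.19 with Klk13, 0.316 with Klk10, 0.407 with Klk6 and 0.555 with Klk12. Its other pairs ran from 0.642 (Klk6 and Klk12) to 0.795 (Klk10 and Klk12). Klk6 was closer to Klk8 (0.827) and Klk7 (0.769) than to Klk10 (0.676) or Klk12 (0.642). These values describe arrays that share group differences and scaling, and are given without a test.

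**Figure D3:**
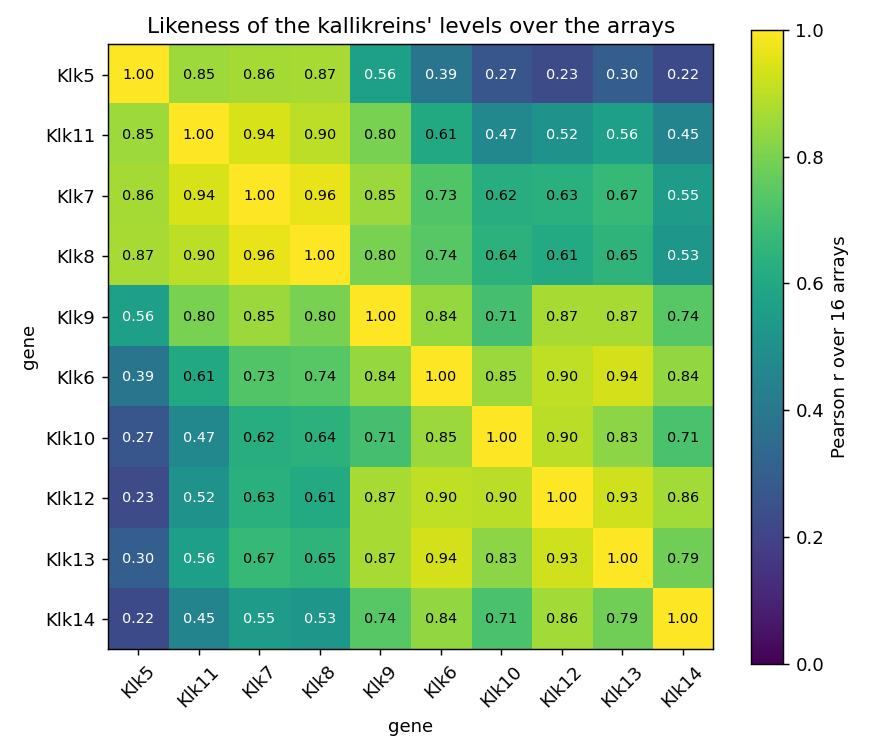
Pearson's r of log2 levels between each pair of the 10 kallikreins over the 16 arrays, as a colour scale (both axes list the genes). Klk5, Klk7, Klk8 and Klk11 form one block of high r, up to 0.965, and the lowest value, 0.224, is that of Klk5 with Klk14.

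The genes whose levels were most like each member's were sought over all 16 arrays, among 16575 compared. These arrays include both db/db + estrogen arrays of labelled day 7. Klk6, Klk10, Klk12, Klk13, Klk14, Krt6a and Sprr1b all had their lowest values there, and no ranking without those arrays is given. For Klk5 the first was Cdsn (r = 0.964), which codes for corneodesmosin, a target of the kallikreins. For Klk7 and Klk8 it was Rnf222 (0.981 and 0.956), with Cers3 (0.958), a ceramide synthase of the skin barrier, also among the first for Klk7, and for Klk11 it was Nfe2l3 (0.965). For Klk9 it was Cnfn (0.968), the cornified envelope protein cornifelin. For Klk12 it was Gjb2 (0.971), which codes for connexin 26, with Krt6a (0.965) close behind, and for Klk14, with the arrays below its background included, it was Sprr1b (0.928), a cornified envelope precursor. Klk13 followed Fxyd4 (0.969) and the late cornified envelope gene Lce3a (0.96), Klk6 followed Fabp5 (0.941), a fatty acid binding protein of the epidermis, and Klk10 followed S100a7a (0.955).

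Replicate arrays differed together across the family. All 10 members were higher in replicate 2 than in replicate 1 in WT (median 0.46 apart) and db/db (1.41) on labelled day 7 and in db/db (1.11) on labelled day 14. All 10 were higher in replicate 1 of db/db + estrogen on labelled day 14, by a median of 1.46, and there Krt1 and Krt10, keratins of the suprabasal layers, were higher by 3.46 and 3.39. In WT on labelled day 14, where 9 of 10 members were higher in replicate 1, Krt1 and Krt10 were higher by 2.58 and 2.89. In db/db + vehicle on labelled day 7, 9 of 10 members were higher in replicate 1, while Krt1 (-0.79), Krt10 (-1.11) and Krt5 (-0.47) were lower there and Krt14 (0.62) was higher (replicate 1 minus 2), and the summed level of 5 wound-activated keratinocyte genes was 637 and 317. The medians of all probes differed by -0.11 to 0.06 between replicates. The part of the sampled skin in these spreads was not tested.

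The genes lie side by side on chromosome 7, in the order Klk14, Klk13, Klk12, Klk11, Klk10, Klk9, Klk8, Klk7, Klk6, Klk5 (RefSeq, GRCm38.p6), followed by Klk4 and Klk15. The 9 genes that fell in estrogen against vehicle on labelled day 7 lie next to one another, from Klk14 to Klk6. Klk5, the member that did not pass, lies at the end of this run. The run rests on Klk7, Klk8 and Klk11, whose calls did not hold in every fit that left out 1 array, and without them it is broken. Klk5 (-0.80 ± 0.72) was not shown to differ from Klk11 (-1.38 ± 0.50). The sizes did not follow the order: Klk13, Klk12 and Klk6 had the largest measured falls, and Klk11, Klk8 and Klk7, between Klk12 and Klk6, the smallest. Klk4, beyond Klk5, differed by -0.31 ± 0.25 in the estrogen wounds relative to vehicle (limma adjusted p = 0.518), and Klk15 was not well above background on any array.

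**Figure D4:**
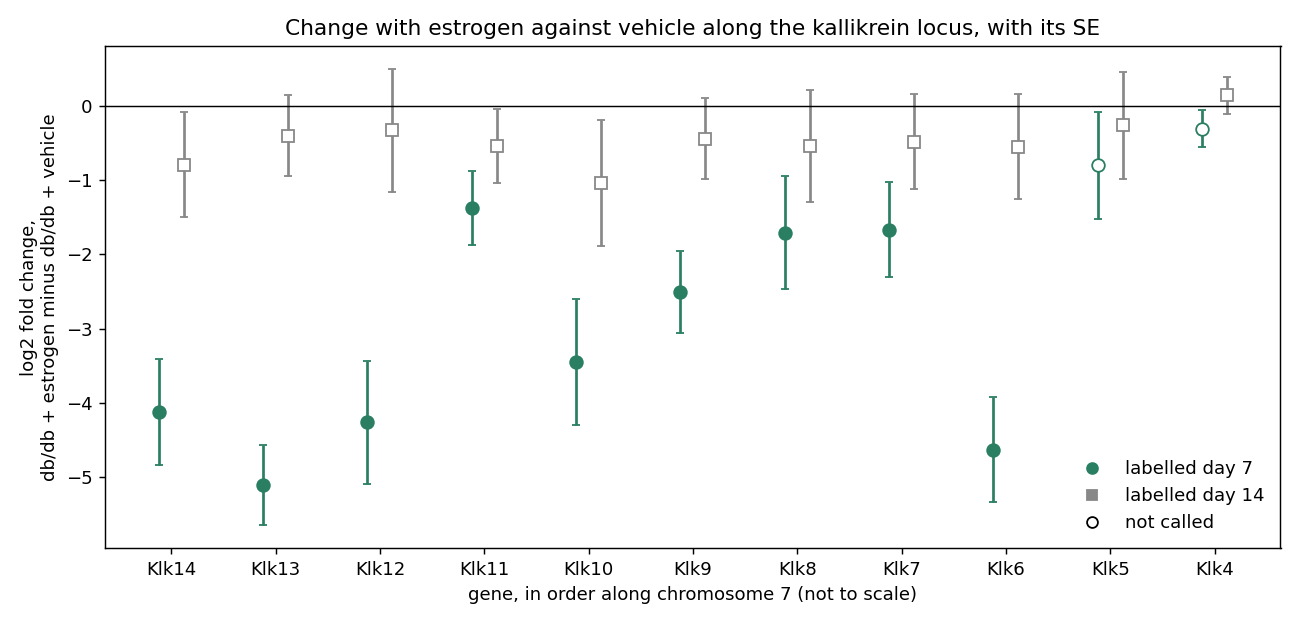
Log2 fold change of db/db + estrogen from db/db + vehicle (y axis) on labelled days 7 and 14 for the kallikreins in their order along chromosome 7 (x axis, not to distance), with bars of 1 SE and open points not called. The lowest points of labelled day 7, Klk13 at -5.11 and Klk6 at -4.63, lie apart from each other in the order, and Klk11, Klk8 and Klk7 between them lie at -1.71 to -1.38. Klk14 on labelled day 7 is a fitted value from readings below background.

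The windows around the start sites are shown because the members that fell most and the member that did not pass can be set side by side in them. Each holds 250 bases before and 50 after the start, 5′ to 3′, from RefSeq (GRCm38.p6), for Klk13, Klk12 and Klk6, whose measured falls were the largest, and for Klk5. Klk6 has 2 annotated starts. Capitals mark CACCC on either strand (GGGTG where it lies on the other strand).
Klk13, chr7:43712317-43712616, plus strand: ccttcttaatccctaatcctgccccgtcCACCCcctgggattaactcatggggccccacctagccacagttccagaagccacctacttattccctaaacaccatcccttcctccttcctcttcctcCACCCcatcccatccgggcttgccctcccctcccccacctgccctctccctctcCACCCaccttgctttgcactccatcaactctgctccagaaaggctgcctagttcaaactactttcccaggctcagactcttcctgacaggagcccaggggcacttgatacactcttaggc
Klk12, chr7:43768850-43769149, plus strand: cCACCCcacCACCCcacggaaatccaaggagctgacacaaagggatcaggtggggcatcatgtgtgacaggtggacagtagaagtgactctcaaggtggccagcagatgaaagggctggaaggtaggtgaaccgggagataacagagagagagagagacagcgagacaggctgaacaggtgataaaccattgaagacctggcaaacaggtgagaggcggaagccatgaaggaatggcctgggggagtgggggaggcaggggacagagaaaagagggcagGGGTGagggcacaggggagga
Klk6, chr7:43824294-43824593, plus strand: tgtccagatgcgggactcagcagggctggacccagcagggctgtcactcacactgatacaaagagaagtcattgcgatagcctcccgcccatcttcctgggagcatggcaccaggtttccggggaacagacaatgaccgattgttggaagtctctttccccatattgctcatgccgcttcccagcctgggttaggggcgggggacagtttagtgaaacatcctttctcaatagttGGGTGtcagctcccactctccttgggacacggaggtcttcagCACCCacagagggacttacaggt
Klk6, chr7:43825200-43825499, plus strand: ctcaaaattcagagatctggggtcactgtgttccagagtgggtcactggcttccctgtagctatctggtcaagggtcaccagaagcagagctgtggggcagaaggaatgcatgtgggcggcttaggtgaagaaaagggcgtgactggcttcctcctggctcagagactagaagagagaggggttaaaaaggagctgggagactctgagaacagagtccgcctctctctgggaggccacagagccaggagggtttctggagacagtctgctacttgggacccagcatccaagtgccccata
Klk5, chr7:43842019-43842318, plus strand: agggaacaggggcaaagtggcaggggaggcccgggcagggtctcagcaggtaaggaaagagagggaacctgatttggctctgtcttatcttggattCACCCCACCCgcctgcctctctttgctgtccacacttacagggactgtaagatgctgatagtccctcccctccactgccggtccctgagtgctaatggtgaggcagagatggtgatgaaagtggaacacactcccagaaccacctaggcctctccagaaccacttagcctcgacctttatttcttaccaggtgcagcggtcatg
Of the 12 windows of the 10 members, 9 held CACCC, a motif bound by Krüppel-like factors, against 57.52% of all 32851 windows of the same length. The match was present in the window of Klk5 and in windows of members that fell, and was missing from the 1 window of Klk8, which fell, and from the second windows of Klk6 and Klk11. None of the 12 held TGANTCA (the AP-1 motif, 7.81% of all windows), TATAAA (13.62%) or GGTCA and TGACC with 3 bases between (the palindromic estrogen response element, 0.07%), each searched on both strands. A missing match says only that these letters are not in these windows.

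The other genes of the pathway are given by their roles. In estrogen against vehicle wounds of labelled day 7, 3 of 25 genes tested rose (background 4.66% of probes called higher) and 1 fell (background 4.32% called lower). Lists this small cannot show fewer calls than those shares. Of the 4 inhibitors tested 0 were called, and the median was -0.90. Spink5, not called, read 2.36 and 1.80 in db/db + estrogen and 3.27 and 3.69 in db/db + vehicle, without overlap. Among the activating and membrane serine proteases 1 of 4 rose, Plau (urokinase), by 1.11. The list of kallikrein targets was drawn in a wide sense and is not a list of substrates only. Of its 9 genes tested Tslp, a cytokine made by keratinocytes, rose by 1.18 and Dsc1, a desmosomal cadherin, fell by 1.98. Of the 6 genes of other cornified layer proteases and their inhibitor 0 were called. Klk1, the classical tissue kallikrein, was higher under estrogen. Its many close Klk1b copies could share its probe, as could Krt6a with Krt6b and the Dsg1 genes with one another. Klk1 read -3.89 and -3.79 in db/db + estrogen and -6.24 and -5.65 in db/db + vehicle, a rise of 2.11 ± 0.31 (limma adjusted p = 0.0108).

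The same lists were set against untreated db/db. Of 5 inhibitors tested Spink12 alone was called, at least 3.87-fold lower (limma adjusted p = 0.152). It was not well above background on either estrogen array and was tested only because it was above background in db/db, so it could only have come out lower. Without it no inhibitor was called. Spink5, which codes for the main inhibitor of Klk5 and Klk7, differed by -0.38. Plau rose by 1.33 (limma adjusted p = 0.0313). The meprin gene Mep1a, also not well above background under estrogen, was at least 1.87-fold lower (limma adjusted p = 0.084). That bound is under the 2-fold threshold, so the call of Mep1a rests on readings below background. The membrane proteases St14 and Prss8 differed by 0.52 and 0.57 without a call. On the target list Dsg1c rose by 1.80 and Tslp by 1.25, and Camp, the gene of the cathelicidin peptide, which neutrophils also carry, fell by 7.08. Cdsn (0.59) and Dsg1a (0.88) were not called. Klk1, at -7.22 and -6.67 in db/db, was higher under estrogen by 3.10 ± 0.31 (limma adjusted p = 0.000862).

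In the untreated diabetic contrast of labelled day 7, genes of these lists were lower beside Klk5, Klk9 and Klk11. Spint2 (-1.01), St14 (-1.14), Prss8 (-1.57), Tmprss13 (-1.66), Cdsn (-1.40), Dsg1b (-1.41), Dsg1c (-2.0), Casp14 (-2.56) and Klk1 (-1.34) were lower in db/db than in WT, and Camp was higher by 7.08. In db/db + vehicle against db/db, Spint2 (1.22), Prss8 (1.30), Tmprss13 (1.22), Dsg1b (1.43), Dsc1 (1.62) and Casp14 (1.34) rose, and Camp fell by 6.08. Mep1a, not well above background in vehicle, was at least 1.88-fold lower, a bound under the 2-fold threshold, so its call rests on readings below background. The other Spint2 probe differed by -0.54 in the first comparison and 0.32 in the second and was called in neither, and the other Prss8 probe, at -1.14 and 1.26, was not called either. Both comparisons use the same db/db arrays. In db/db against WT, 9 of 27 genes tested on these lists were lower on labelled day 7, and 5 of 27, Spint1 (-1.11), Tmprss13 (-1.48), Dsg1c (-1.50), Tslp (-2.44) and Casp14 (-1.26), were lower on labelled day 14, beside the backgrounds of 8.42% and 15.6% given above.

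Genes of the wound-activated keratinocyte, keratins and an envelope precursor that epidermis makes at wound edges, fell in the same arrays as the kallikreins. All 5 of that list were lower in db/db + estrogen than in db/db + vehicle on labelled day 7 (background 4.32% of probes called lower). Each had an adjusted p under 0.05 (background 1.26%): Krt6b differed by -5.90, Sprr1b by -5.60, Krt6a by -3.88, Krt16 by -3.70 and Krt17 by -2.05. Their median was -3.88, beside -2.98 for the kallikreins. The 2 Krt6b probes differed by -5.90 and -3.53. Krt16, the most abundant of the list, read 3.70 and 4.0 in db/db + estrogen and 7.92 and 7.19 in db/db + vehicle, without overlap. The summed level of the list, on the linear scale relative to the 75th percentile, was 42.9 and 35.6 in db/db + estrogen, 637 and 317 in db/db + vehicle, 240 and 239 in db/db and 346 and 429 in WT. On labelled day 14 it was 596 and 356 in db/db + estrogen and 546 and 511 in db/db + vehicle.

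The lists of the resting epidermal layers were set against the same comparison, with 4.66% of all probes called higher and 4.32% lower. Lists this small cannot show fewer calls than those shares, and 1 call in a list was not read as more. Of 7 basal genes 1 was called, Krt15, which rose by 2.31, and of 6 suprabasal genes 0. Of 8 granular genes, the layer in which kallikreins are known to be made, 1 was called, Tgm1, which fell by 1.93. The summed suprabasal level, led by Krt10, was 324 and 191 in db/db + estrogen and 291 and 501 in db/db + vehicle, and the basal one, led by Krt5, 390 and 341 against 295 and 339. Hair follicle genes rose in 8 of 12 (background 4.66% of probes called higher), with none at an adjusted p under 0.05. Some were near the floor in vehicle: on its replicate 1 Krt33a read -9.69 and Krt34 read -7.77. On db/db + estrogen replicate 1 they read -2.51 and -5.64. A gene tested only because it was above background under estrogen could only have come out higher, and no count without such genes is given. Neutrophil genes fell in 4 of 6 (background 4.32% of probes called lower), 2 of them with an adjusted p under 0.05 (background 1.26%). Their summed level, led by S100a9, was 6.09 and 25.0 in db/db + estrogen against 426 and 403 in db/db + vehicle. That sum is carried by S100a9 (-4.76) and S100a8 (-5.66), which activated keratinocytes are also known to make. Retnlg (-5.28) and Ltf (-1.92) were the other genes called, and Ngp (-2.65) and Camp (-0.99) were not called. Each gene of these lists that had a probe was well above background on at least 1 array. Their part in the kallikrein result was not tested.

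**Figure D5:**
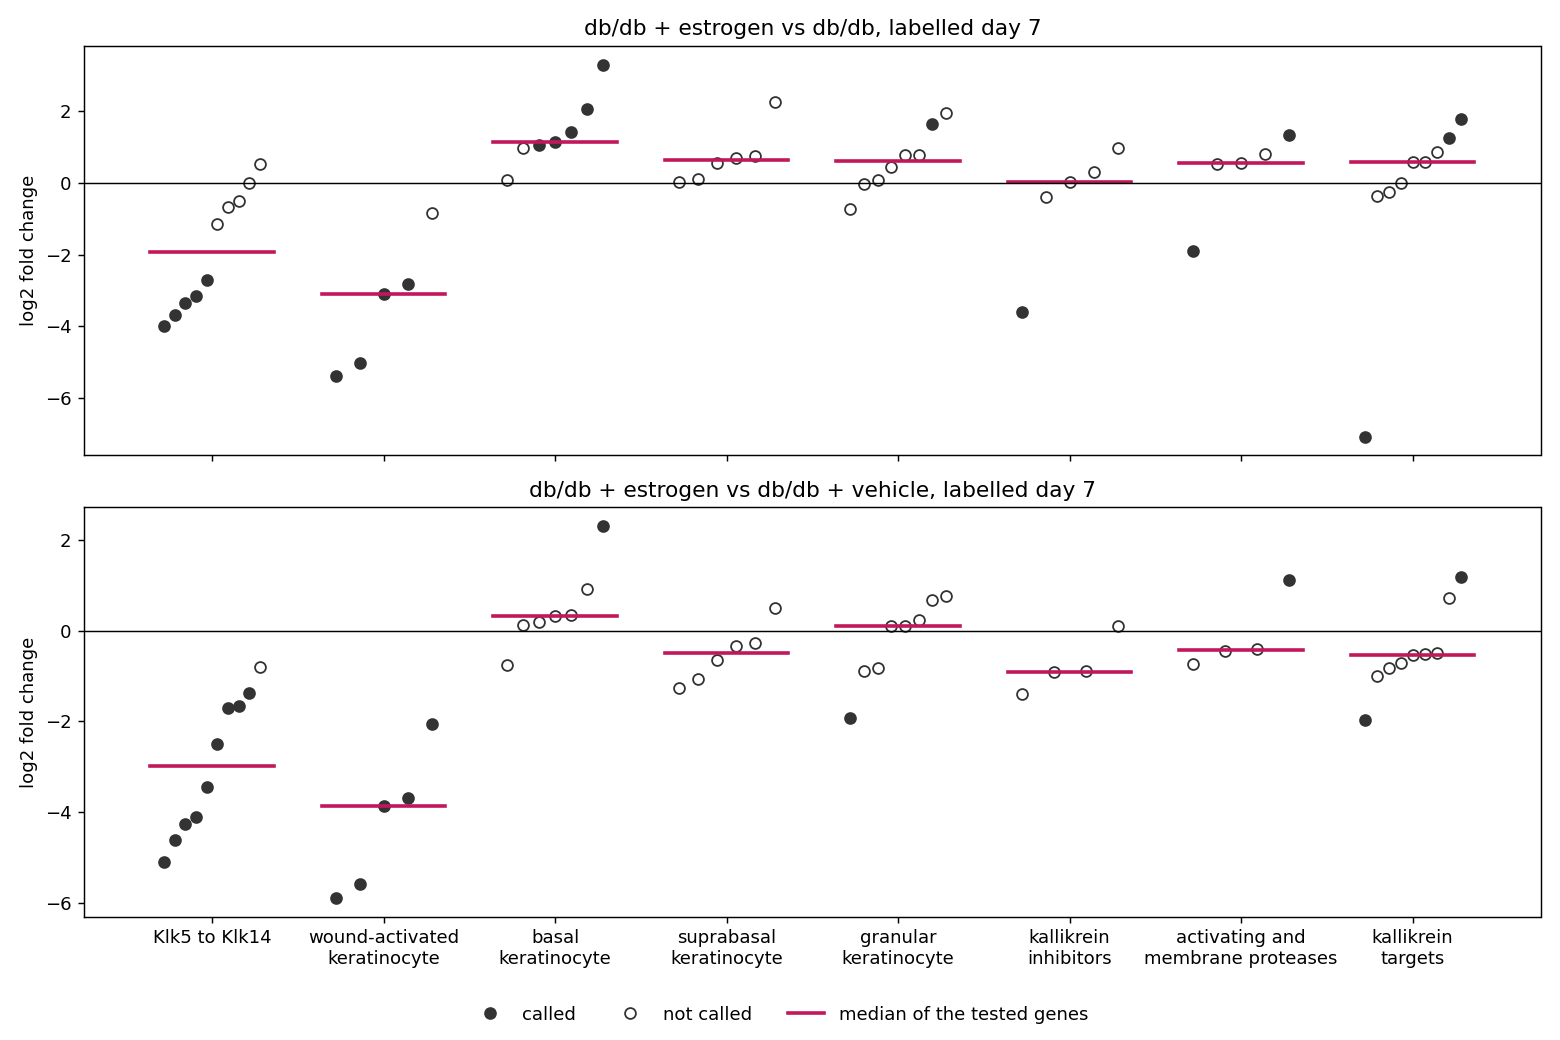
Log2 fold change (y axis) of the tested genes of 8 lists (x axis) in db/db + estrogen against db/db (upper panel) and against db/db + vehicle (lower panel) on labelled day 7, with filled points called and lines at the median. Against vehicle the wound-activated keratinocyte list lies at -3.88 and the kallikreins at -2.98, while the basal, suprabasal and granular lists lie at 0.32, -0.49 and 0.10.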

How the data were processed

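Total RNA of wound homogenates was labelled with Cy3 and hybridised to 16 Agilent 4x44K mouse arrays, 1 colour, 2 arrays for each of 8 groups taken from the labels. The authors scanned them and ran Feature Extraction 11.0.1.1 (the version is also in the submitters' processing notes), and the deposited scanner files hold for each spot a background-subtracted, spatially detrended intensity, the median foreground and background intensity, and flags, which were used as other values here. The deposited series matrix holds the authors' values as a ratio to each array's 75th percentile on a linear scale: for 99.44 to 99.77% of its probes it lay within 0.1% of a constant multiple (0.9995 to 1.0018) of the scaled scanner signal. It has 34643 probes and was used as an alternative.

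Here log2 of the processed signal minus that of the array's 75th percentile (1091 to 2548; no saturated spot) was used, leaving out control and outlier-flagged spots and averaging spots of a probe. Accessions were matched to RefSeq (GRCm38.p6 tables), which named 27427 of 39429 probes (69.6%). A probe was tested if 1 or more of the groups compared had both arrays well above background for it. Groups were compared with limma 3.58.1 (lmFit, eBayes) in R 4.3.3, all 8 groups in 1 fit with 8 residual degrees of freedom, in 12 comparisons within and 4 between labelled days. A gene was called at an unadjusted two-sided p under 0.05 and a fold above 2, after the study's methods, with Benjamini-Hochberg adjustment beside it. With 2 against 2 arrays an exact permutation test cannot go below p = 0.333, so none was used. The limma script was tested on simulated data. Genes named in the text were all members, genes of 5 pathway lists that were called in db/db against WT or a treated group against db/db (Spink5, Cdsn, Dsg1a, St14 and Prss8 always), and some of the 5 genes with the highest r to each member. Klk4 and Klk15, as neighbours, and genes of the 13 cell type lists were named after their values were seen. For genes with several probes the probe with the highest mean was used. No probe for Flg or Cd68 was used here.

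The members, lists and tests were chosen with earlier results of these data known. The test of differences between labelled days for estrogen against vehicle was added after seeing the data. Of 40 fold changes between groups that the study prints by day, 0 were within 1% on arrays of the same labelled day and 40 on arrays of the other day. Slides 1 and 2 each held 1 array of each group of labelled day 7. Slide 3 held both db/db arrays of labelled day 14 with vehicle and estrogen replicate 1, and slide 4 held both WT arrays with vehicle and estrogen replicate 2. Alternatives were quantile normalisation, normexp background correction (offset 50), other filters on dim probes, the series matrix, only the arrays compared, slide or replicate number as a block, and leaving out each array. The number of arrays and the signal over background limit the precision.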

Additional observations from a re-analysis of the deposited data

How the results depend on the processing

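No call of a member changed direction under any alternative run. Counts of members called that moved by more than 1.5 times were as follows. With an adjusted p under 0.05 in place of the unadjusted p, 0 were called in db/db against WT and in vehicle against db/db on either labelled day, in vehicle against WT on either labelled day, in estrogen against WT on labelled day 14 and between the days in WT, while on labelled day 7 3 remained for estrogen against db/db, 5 against vehicle and 4 against WT. With only the arrays compared, vehicle against db/db on labelled day 7 had 1 and WT between the days 2. With slide as a fixed block, vehicle against WT on labelled day 7 had 2, and on labelled day 14 db/db against WT had 1, estrogen against db/db 1, estrogen against WT 2 and vehicle against WT 0. With slide as a random block, labelled day 14 had 1 in vehicle against db/db and 0 in vehicle against WT. Quantile normalisation gave 1 in db/db against WT and 0 in vehicle against WT on labelled day 14, and 1 in db/db between the days; the series matrix gave 0 in vehicle against WT on labelled day 14.

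Same-numbered arrays of different groups did not deviate together (r of -0.455 to 0.386), so the numbers were not taken to pair them; with the replicate block, labelled day 14 had 1 member called in vehicle against db/db and 0 in vehicle against WT, and its other counts stayed within 1.5 times. That block numbers replicates within each labelled day. For the comparisons between days 1 block over both days was fitted, added after seeing the data, and gave 1 member called in WT, 0 in db/db, 6 in db/db + estrogen and 0 in db/db + vehicle, as without it. Under normexp 1 member, Klk13, had an adjusted p under 0.05 for the day difference of estrogen against vehicle.

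Leaving out each array in turn, the members called on labelled day 7 ranged from 0 to 4 for db/db against WT, 4 to 6 for estrogen against db/db, 0 to 4 for vehicle against db/db, 6 to 8 for estrogen against vehicle, 5 to 7 for estrogen against WT and 0 to 3 for vehicle against WT. On labelled day 14 they ranged from 0 to 3, 0 to 2, 0 to 2, 0 to 1, 0 to 3 and 0 to 0 in the same order. Between the days they ranged from 0 to 2 in WT, 0 to 1 in db/db, 5 to 7 in db/db + estrogen and 0 to 0 in db/db + vehicle. Members with an adjusted p under 0.05 for the day difference of estrogen against db/db ranged from 0 to 1. Over the 9 alternatives other than leaving out arrays and the adjusted p, Klk13 ranged from -5.14 to -4.93 and Klk6 from -4.63 to -4.53, while Klk12 ranged from -4.41 to -2.96, in estrogen against vehicle on labelled day 7. The fitted value of Klk14, below background on both estrogen arrays, ranged from -4.17 to -1.04. The counts with an adjusted p under 0.05 fell further with fewer arrays, to 1 for estrogen against vehicle and 0 for estrogen against db/db. Taking another probe of a member gave no value, since each has 1. The cause of these changes was not tested.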
